A study of Mus musculus with 6 samples.

Results

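The 10 genes described here encode the protein core of elastic fibres and the parts of the microfibril scaffold around it: Eln, Fbn1, Fbn2, Mfap2, Mfap4, Mfap5, Fbln1, Fbln5, Lox and Emilin1. They were chosen by name and function, matched by Ensembl ID, and make up 10 of the 55487 genes listed. All 10 passed the filter on low counts that left 16603 genes for testing, and the lowest count of any of them in any library was 159. RNA-seq covered 6 libraries of mouse embryonic fibroblasts (MEFs), connective-tissue cells grown out of embryos, from a series whose title concerns mTORC1 signalling, a chemokine pathway and granulomas. The 2 groups were untreated wild-type (WT) and knockout (KO) cultures, each with 1 library at passages 2, 3 and 4, where a passage is 1 round of replating. The labels give no knocked-out gene, strain, Cre driver, embryo age or number of embryos. Nothing says that the passages of a genotype are separate cultures, and the p-values below then reflect the variation among these 6 libraries alone. Genotype was read from the titles, and the separate genotype tag differs from the title in 2 libraries (KO at passages 3 and 4). The sexes also differ: Xist, the RNA of the inactive X chromosome, had 417 to 567 CPM in the KO libraries and 0.118 to 0.301 CPM in the WT libraries, so that sex and genotype cannot be told apart in any difference between WT and KO. CPM is a gene's count relative to the size of its library after TMM normalisation, which allows for differences in RNA composition.

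Elastic fibres give skin, lung and arteries their recoil. Fibrillins assemble into microfibrils, small microfibril-associated glycoproteins bind to them, tropoelastin is laid down on that scaffold with the help of fibulin-5, and lysyl oxidase cross-links it. Microfibrils also store latent TGF-beta. Fibroblasts and smooth muscle cells are the main makers of these proteins, mostly during development and the first weeks of life.

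Of the 10 genes, 5 had an entry in a RefSeq promoter table of build GRCm38.p6. The stretch before the start is shown for 3 of them, Fbln1, Fbln5 and Mfap2, and not for Fbn1 and Emilin1. Fbln1 passed the test between genotypes described below and was lower in KO. Fbln5 and Mfap2 had higher values at each later passage, and they too had lower CPM in KO than in WT at each passage. Each sequence is 200 bases that lie outside annotated exons, read 5′ to 3′ on the gene's strand. Capitals mark matches, on either strand, to any of 7 motifs searched. The GC box was searched as GGGCGG. For the E box the letters were CACGTG. For the TATA box they were TATAAA. The CCAAT box is spelled by its name. An AP-1 site was taken to be TGANTCA. TEAD sites were searched as CATTCC. The letters of the SMAD element were CAGAC. No marked match overlapped another.
Fbln1, chr15:85205749-85205948, plus strand: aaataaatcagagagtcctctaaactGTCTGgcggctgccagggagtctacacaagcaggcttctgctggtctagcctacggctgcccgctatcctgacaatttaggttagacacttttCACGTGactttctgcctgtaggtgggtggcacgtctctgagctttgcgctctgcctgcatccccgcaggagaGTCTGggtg
Fbln5, chr12:101819120-101819319, minus strand: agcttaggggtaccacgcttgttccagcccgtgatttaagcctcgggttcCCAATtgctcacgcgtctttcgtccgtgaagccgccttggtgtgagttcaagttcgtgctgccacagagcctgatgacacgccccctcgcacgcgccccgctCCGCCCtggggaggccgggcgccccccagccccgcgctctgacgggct
Mfap2, chr4:141010218-141010417, plus strand: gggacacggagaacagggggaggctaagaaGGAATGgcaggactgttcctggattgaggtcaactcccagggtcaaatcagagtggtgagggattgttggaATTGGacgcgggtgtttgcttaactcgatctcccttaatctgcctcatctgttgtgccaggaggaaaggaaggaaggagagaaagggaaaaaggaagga
Positions count back from the transcript start of the RefSeq entry. For Fbln5 and Mfap2 that start differs from the 5′ end of the gene coordinates given below. The Fbln1 stretch held the E box at -81, which 5.26% of 32851 promoters hold in a window of 200 bases, and SMAD elements at -174 and -9, which 35.5% hold. The Fbln5 stretch held a GC box at -48 (31.0% of promoters) and a CCAAT box at -150 (29.3%). The Mfap2 stretch held a CCAAT box at -105 and a TEAD site at -176 (10.1% of promoters). Fbln5 and Mfap2 thus both held the CCAAT letters, at different places and on opposite strands. None of the 3 held a TATA box (9.96% of promoters) or an AP-1 site (5.48%). These are matches of letters and not measured sites.

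Levels can be compared between genes only per length, so the order of the genes is given in TPM, in which the authors' estimates were scaled for transcript length. Lox stood far above the rest with 1672 ± 442 TPM in WT and 1256 ± 60.7 TPM in KO (SD, n = 3), and it made up 51.1% to 66.8% of the summed TPM of the 10 genes in each library. Fbln5 (283 ± 80.7 TPM in WT) and Fbn1 (282 ± 92.5 TPM) followed, and their libraries overlapped. Mfap4 (164 ± 26.9 TPM), Emilin1 (143 ± 32.4 TPM) and Fbln1 (110 ± 17.7 TPM) formed a middle group in which neighbours overlapped. Mfap2 (67.5 ± 12.6 TPM), Mfap5 (61.6 ± 22.4 TPM) and Fbn2 (47.4 ± 13.2 TPM) overlapped below them. Eln was the lowest of the 10 at 6.50 ± 4.50 TPM in WT and 4.39 ± 1.82 TPM in KO, below Fbn2 in every library of its genotype. The messenger RNA of the fibre's core protein was therefore scarce beside that of its cross-linking enzyme and its scaffold. In KO the order was the same at both ends. Mfap4 moved from place 4 to place 6, behind Emilin1 (85.1 ± 20.6 TPM) and Fbln1 (57.3 ± 2.77 TPM). The KO libraries of Mfap4 overlapped those of Fbln1 and Mfap2. The summed TPM of the 10 genes was 3214, 3017 and 2278 in WT and 1900, 1949 and 2125 in KO at passages 2, 3 and 4, and the ranges did not overlap.

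**Figure D1:**
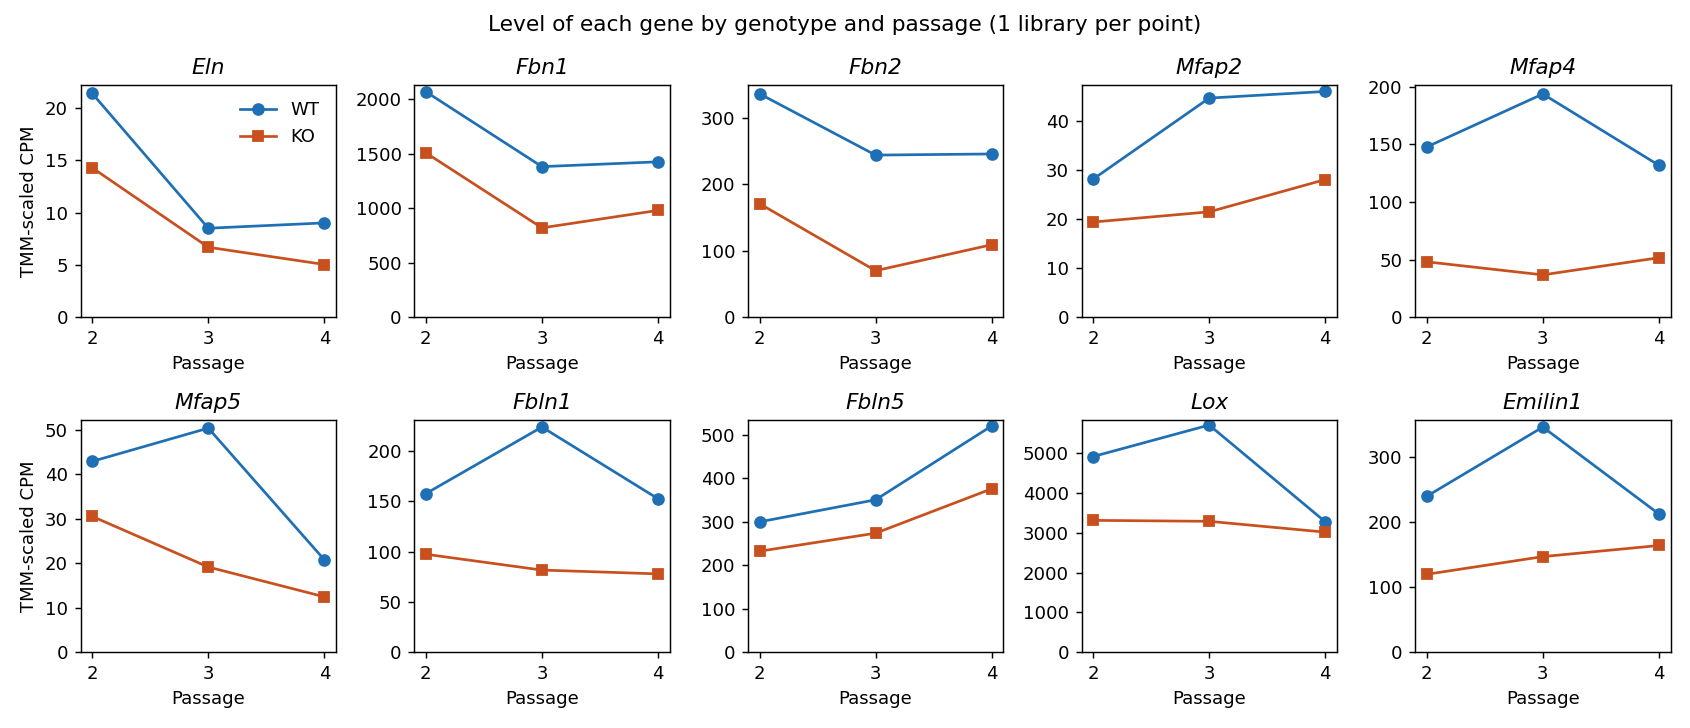
TMM-scaled CPM (y axis, from 0, a different scale in each panel) of the 10 genes at passages 2, 3 and 4 (x axis) in WT (blue circles) and KO (orange squares), with 1 library per point and no error bar. The KO point lies below the WT point of the same passage in 30 of 30 pairs, and Eln falls while Fbln5 climbs in both genotypes.

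The first comparison asks how the KO cultures differed from the WT cultures. All 10 genes had lower CPM in KO than in WT at each passage, 30 of 30 pairs of libraries, where 27.4% of all tested genes were lower in all 3 passages. With edgeR's quasi-likelihood test 2 of the 10 passed at an adjusted p under 0.05, Mfap4 and Fbln1, both lower in KO, against 2.48% of all genes tested (1.55% lower and 0.934% higher). The fitted log2 changes of the 10 ran from -1.79 to -0.41 with a median of -0.83, beside a median of -0.01 over all genes. When passage was added as a block, which compares the libraries of the same passage, 9 of the 10 were lower and 11.1% of all genes were called (6.37% lower and 4.69% higher). Lox was the exception. In CPM the genotypes did not overlap for 5 of the 10 genes (Fbn2, Mfap2, Mfap4, Fbln1 and Emilin1), against 14.1% of all genes with every KO library below every WT library.

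Mfap4 showed the largest difference. It encodes a fibrinogen-domain glycoprotein found at microfibrils and elastic fibres (ENSMUSG00000042436, chr11:61485431-61488900, plus strand). WT libraries held 147.8, 193.7 and 131.9 CPM and KO libraries 48.2, 36.9 and 51.8 CPM at passages 2, 3 and 4. Every KO library stood far below every WT library, with a 3.46-fold gap between the means (log2 -1.79 ± 0.18 SE, edgeR adjusted p = 0.00757). The test was passed in 6 of 6 fits that each left out 1 library (adjusted p from 0.0163 to 0.0391), and it was missed when both passage 2 libraries were left out (log2 -1.88, adjusted p = 0.0625). Of its 1922 exon bases, 89 are shared with Mapk7 on the opposite strand, and whether reads were counted by strand is not given in the sources used here. Mapk7 had 30.2 to 38.4 CPM and a log2 difference of -0.23 (adjusted p = 0.23).

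The genotypes separated more clearly for one of the fibulins than for the other. Fbln1 encodes fibulin-1, a calcium-binding glycoprotein of elastic fibres and basement membranes (ENSMUSG00000006369, chr15:85205949-85286535, plus strand). Its level was 157.5, 223.6 and 152.4 CPM in WT and 97.3, 81.6 and 77.8 CPM in KO, so the genotypes did not overlap (log2 -1.06 ± 0.17 SE, edgeR adjusted p = 0.0274). The call was kept in 2 of 6 fits that left out 1 library, and was missed without the WT library of passage 2 (adjusted p = 0.0612), the WT library of passage 3 (0.0886), the KO library of passage 3 (0.171) or the KO library of passage 4 (0.0739). It was also missed without both passage 2 libraries (adjusted p = 0.0828). With the passage block its adjusted p was 0.00973.

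Fbln5 encodes fibulin-5, which binds tropoelastin and guides it to microfibrils (ENSMUSG00000021186, chr12:101746565-101819055, minus strand). It held 299.4, 350.1 and 519.7 CPM in WT and 232.0, 273.4 and 375.3 CPM in KO. The KO library was the lower one at each passage, by a ratio of 0.722 to 0.781, while the ranges of the genotypes overlapped widely because both climbed with passage. The genotype test was not passed (log2 -0.41 ± 0.25 SE, edgeR adjusted p = 0.395), and with the passage block it was (log2 -0.40 ± 0.09 SE, adjusted p = 0.033).

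The fibrillins are the backbone of the microfibril. Fbn1, the fibrillin with the higher TPM in every library (ENSMUSG00000027204, chr2:125300594-125507993, minus strand), held 2065, 1380 and 1424 CPM in WT and 1506, 820 and 980 CPM in KO. Its KO library of passage 2 lay above the WT libraries of passages 3 and 4, so the genotypes overlapped (log2 -0.56 ± 0.26 SE, edgeR adjusted p = 0.27; with the passage block log2 -0.58, adjusted p = 0.0184). Exons of Gm9913, an annotated gene on the opposite strand with 3.49 to 5.65 CPM, share 2442 of the 12128 exon bases of Fbn1.

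Fbn2, the other fibrillin (ENSMUSG00000024598, chr18:58008623-58210487, minus strand), held 335.7, 243.7 and 245.4 CPM in WT and 170.8, 70.2 and 109.2 CPM in KO. No KO library reached a WT library, and the means lay 2.35-fold apart. The test without the block was not passed (log2 -1.24 ± 0.31 SE, edgeR adjusted p = 0.0929), and with it Fbn2 was called (log2 -1.31 ± 0.16 SE, adjusted p = 0.00717). DESeq2 also called Fbn2 without the block, as it did Mfap2 and Emilin1, which edgeR without the block did not call either.

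The proportions of the fibrillins did not overlap between the genotypes. The ratio of Fbn1 to Fbn2 in TPM was 6.20, 5.64 and 5.85 in WT and 8.65, 11.4 and 8.84 in KO. All KO ratios were above all WT ratios, the most separated arrangement that 3 against 3 allows (exact permutation test, 2-sided p = 0.1, the smallest possible; adjusted over 6 ratios computed, 0.3). The other ratio that did not overlap was Fbn1 to Mfap4, at 2.28, 1.16 and 1.80 in WT and 5.22, 3.71 and 3.10 in KO (exact permutation p = 0.1, adjusted 0.3). No ratio could reach a p under 0.05 with this number of libraries.

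Mfap2 and Mfap5 encode MAGP-1 and MAGP-2, the small glycoproteins that bind fibrillin. Mfap2 (ENSMUSG00000060572, chr4:141010418-141015984, plus strand) held 28.23, 44.76 and 46.11 CPM in WT and 19.47, 21.55 and 28.14 CPM in KO. The genotypes were just separate, since the highest KO library, passage 4, came next to the lowest WT library, passage 2. In TPM they overlapped. The test was not passed without the block (log2 -0.78 ± 0.22 SE, edgeR adjusted p = 0.11) and was passed with it (adjusted p = 0.0141).

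Mfap5 (ENSMUSG00000030116, chr6:122505845-122529290, plus strand) held 42.9, 50.4 and 20.8 CPM in WT and 30.5, 19.2 and 12.5 CPM in KO. The WT library of passage 4 lay among the KO values, and the adjusted p was 0.271 (log2 -0.88 ± 0.41 SE, edgeR). The blocked fit gave 0.029.

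Eln encodes tropoelastin (ENSMUSG00000029675, chr5:134702593-134747323, minus strand). Its counts were 904, 340 and 218 in WT and 396, 467 and 159 in KO, or 21.4, 8.52 and 9.02 CPM against 14.3, 6.70 and 5.06 CPM. The KO library of passage 2 stood above the WT libraries of passages 3 and 4. The genotype test was not passed (log2 -0.59 ± 0.49 SE, edgeR adjusted p = 0.54). Within passages KO stood at 0.668, 0.787 and 0.560 of the WT CPM, and with the block the adjusted p was 0.0441. In TPM the passage 3 libraries were nearly equal (3.62 in WT and 3.68 in KO), and with the block Eln was not called on the log2(TPM + 1) scale or with effective lengths as offsets.

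Lox encodes lysyl oxidase, the copper enzyme that cross-links elastin and collagen (ENSMUSG00000024529, chr18:52516067-52529867, minus strand). It held 4919, 5711 and 3279 CPM in WT and 3315, 3291 and 3019 CPM in KO. The passage 4 libraries were close, with KO at 0.921 of WT, and their TPM had the opposite order (1163 in WT and 1278 in KO). Neither fit called the difference (log2 -0.53 ± 0.20 SE, edgeR adjusted p = 0.187; with the block -0.49 ± 0.14 SE, 0.0672), although DESeq2 with the block did.

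Emilin1 encodes a glycoprotein at the border between the elastin core and the microfibrils (ENSMUSG00000029163, chr5:30913402-30921277, plus strand). It held 239.9, 346.4 and 212.7 CPM in WT and 119.9, 147.1 and 164.2 CPM in KO. The KO values were all lower, and the gap narrowed from ratios of 0.4997 and 0.4247 at passages 2 and 3 to 0.772 at passage 4 (log2 -0.89 ± 0.20 SE, edgeR adjusted p = 0.0727; with the block 0.0255).

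The size of the difference varied with passage across the set. The median within-passage log2 ratio of the 10 genes in CPM was -0.58 at passage 2, -1.15 at passage 3 and -0.73 at passage 4. In TPM the medians were -0.788, -0.915 and -0.469, so passages 2 and 4 changed places. Each median compares 1 library per genotype, so a difference between passages was not tested here. Calls with the block depended on which passage was present: 6 of the 10 were called without passage 2 (2.43% of all genes called lower), 3 without passage 3 (0.979%) and 7 without passage 4 (9.20%). Calls of lower genes with the block by other tools were 6 of the 10 with limma on log2(TPM + 1) (4.09% of all genes), 8 with effective lengths as offsets (5.54%) and 10 with DESeq2 (7.78%). In TPM, 28 of 30 pairs were lower in KO, the exceptions being Eln at passage 3 and Lox at passage 4. For 8 of the 10 genes TPM was lower at all 3 passages, against 13.5% of all genes. On the TPM scale without the block Mfap4 and Fbln1 were again the genes called.

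**Figure D2:**
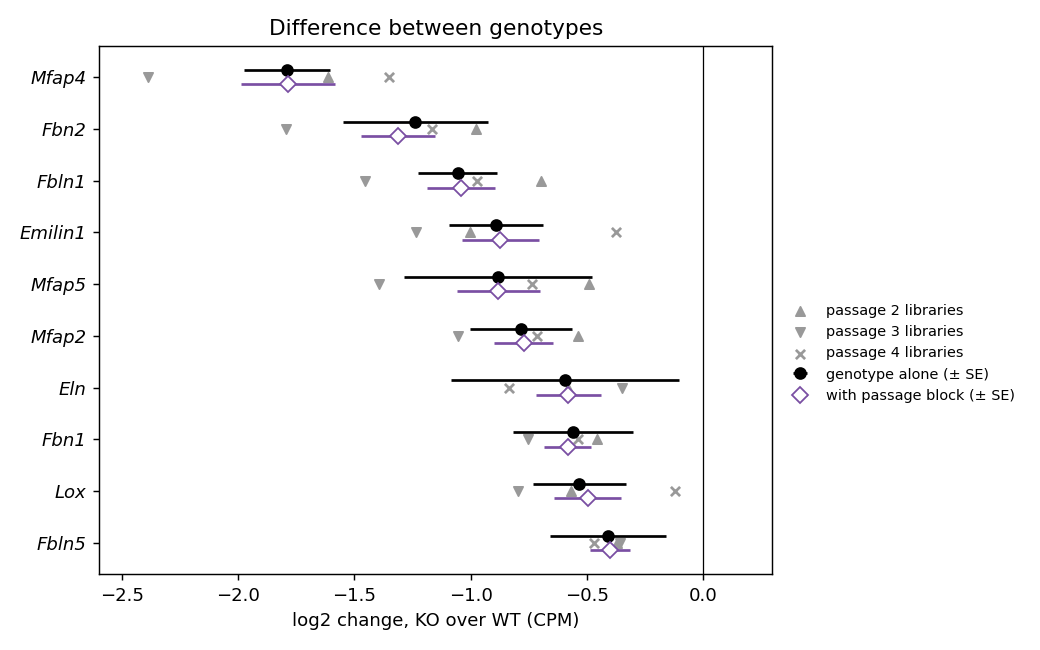
Log2 change of KO over WT (x axis) for each of the 10 genes (y axis, ordered by the fit of genotype alone), with black circles for that fit and open diamonds for the fit with passage as a block (bars are SE). Grey marks give the log2 ratio of CPM of the libraries of each passage, and every mark lies below 0, from Mfap4 at -1.79 to Fbln5 at -0.41 in the fit of genotype alone.

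Markers of connective-tissue cells moved in the same comparison. Of 9 fibroblast markers, 4 were lower in KO (Col1a1, Col1a2, Col3a1 and Pdgfra) and 5 with the block (Lum added, adjusted p = 0.00708 by edgeR), and the summed CPM of the 9 was 37370 to 48870 in WT and 21160 to 25280 in KO. Vim, also on that list, was not called and averaged 1961 CPM in WT against 2252 CPM in KO, with every KO library above every WT library (edgeR adjusted p = 0.334). Of 8 smooth muscle markers, 1 was higher (Actg2) without the block and 6 with it, with summed CPM of 2505 to 4021 in WT and 4103 to 5508 in KO. In bulk RNA, fewer cells of a type and less RNA per cell cannot be told apart, and the part of these markers in the lower values of the 10 genes was not tested. No marker of these 2 lists was at 0 in any library. Of 6 cartilage markers 1 was called, Col2a1, and of 5 skeletal muscle markers 1, Acta1, both higher in KO. The other tested genes of those lists were not called and had fitted log2 changes below 0 (Acan -0.925, Sox9 -0.633 and Myh3 -0.339). Col2a1 had only 5 to 38 counts in the WT libraries. Without the block no macrophage, endothelial, epithelial, mesothelial, neural or adipocyte marker was called. With the block 4 of 10 macrophage markers (Adgre1, Csf1r, Ptprc and Itgam), Lrrn4 (mesothelial), Lpl (adipocyte) and Sox9 (cartilage) were lower, and Krt18 (epithelial) and Krt19 (mesothelial) were higher. The part of these markers was not tested either.

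The second comparison asks what changed from passage 2 to passage 4 in both genotypes, as a linear slope per passage with genotype in the fit. Of the 10 genes, Eln fell and Fbln5 rose, against 6.25% of all genes called (3.48% falling and 2.78% rising). The other 8 did not pass. The fitted slopes ran from -0.69 to 0.37 log2 per passage with a median of -0.14, beside 0.00 over all genes, so the set as a whole did not move one way.

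Eln fell by 0.69 log2 per passage (± 0.13 SE, edgeR adjusted p = 0.0241), and its CPM at passage 4 was 0.422 of that at passage 2 in WT and 0.354 in KO. Most of the fall lay between passages 2 and 3. From passage 3 to 4 WT went from 8.52 to 9.02 CPM and KO from 6.70 to 5.06 CPM. Without both passage 2 libraries the slope was -0.16 (adjusted p = 0.876). The call was also missed without the WT library of passage 2 (adjusted p = 0.161), the KO library of passage 2 (0.139) or the KO library of passage 4 (0.121).

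Fbln5 rose by 0.37 log2 per passage (± 0.06 SE, edgeR adjusted p = 0.0119), to 1.74 times its passage 2 level in WT and 1.62 times in KO. Its CPM climbed at every step in both genotypes, as did that of Mfap2, against 9.47% of all genes. In TPM the WT libraries of passages 2 and 3 were about equal (239 and 234). The direction held in each fit with a library left out, but the call was missed in 4 of the 6, those without either library of passage 2 or of passage 4 (adjusted p from 0.0557 to 0.0909), and without both passage 2 libraries (log2 0.51, adjusted p = 0.165) or both passage 4 libraries (log2 0.24, adjusted p = 0.356). Eln and Fbln5, whose products bind each other, therefore had slopes of opposite sign. The ratio of Fbln5 to Eln in TPM went from 20.5 to 64.5 to 89.8 in WT and from 25.9 to 59.2 to 105 in KO.

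Mfap2 and Mfap5 had opposite slopes as well, each just short of the threshold. Mfap2 had a slope of 0.31 ± 0.08 SE (edgeR adjusted p = 0.0565) and Mfap5 one of -0.58 ± 0.14 SE (adjusted p = 0.0577). DESeq2 and the log2(TPM + 1) scale called both. The ratio of Mfap2 to Mfap5 in TPM was 0.742, 0.922 and 2.18 in WT and 0.689, 1.20 and 2.29 in KO at passages 2, 3 and 4. The ratio was thus highest at passage 4 in both genotypes, and the ranges of the genotypes overlapped (exact permutation p for genotype = 0.9).

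The fibrillins had slopes of -0.29 ± 0.10 SE for Fbn1 (edgeR adjusted p = 0.16) and -0.28 ± 0.15 SE for Fbn2 (adjusted p = 0.358), and both slopes turned positive without the passage 2 libraries (0.15 and 0.32). Both had their highest level of each genotype at passage 2. Lox had a slope of -0.17 ± 0.11 SE (adjusted p = 0.409), Fbln1 of -0.10 (0.645), Mfap4 of -0.01 (0.977) and Emilin1 of 0.08 (0.78). For Mfap4 and Emilin1 the slopes of WT and KO had opposite signs. The other 8 genes had slopes of the same sign in both.

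**Figure D3:**
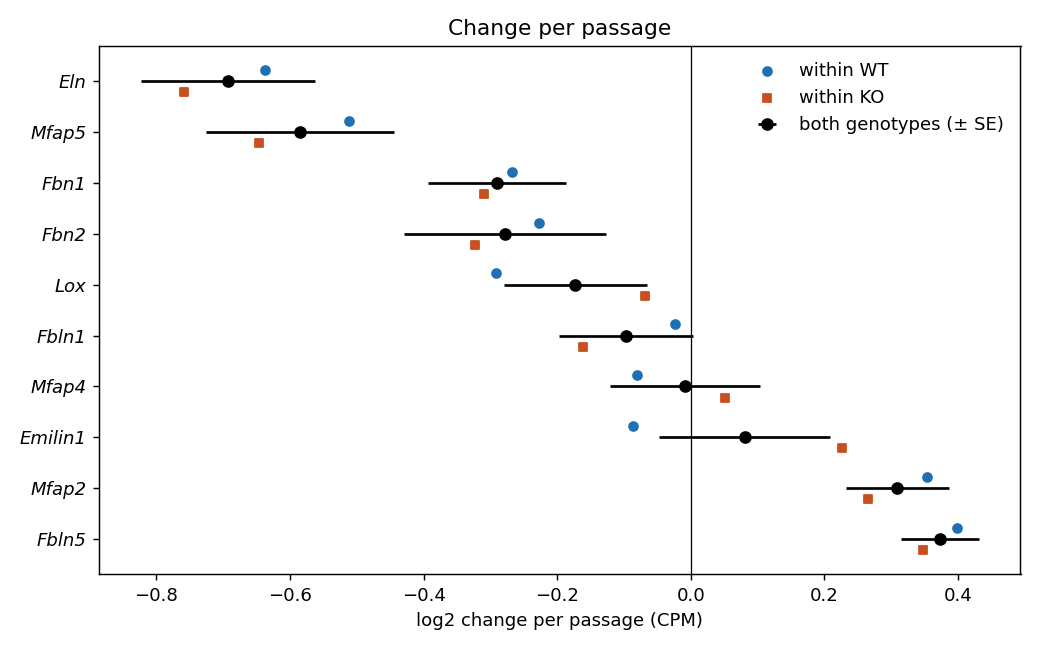
Log2 change per passage (x axis) of the 10 genes (y axis, ordered by slope), with black circles and SE bars for the slope over both genotypes and coloured points for the slopes within WT (blue circles) and KO (orange squares). Eln and Mfap5 lie at the falling end and Mfap2 and Fbln5 at the rising end, and only Eln (-0.69) and Fbln5 (0.37) passed the test.

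Markers of other cell types also moved with passage. All 10 macrophage markers fell (summed CPM 58.1 to 392 in WT and 41.6 to 285 in KO), as did 4 of 8 endothelial markers (11.6 to 25.8 and 14.3 to 29.1 CPM), 4 of 5 mesothelial markers (13.82 to 39.98 and 19.2 to 39.6 CPM) and 4 of 5 adipocyte markers (287 to 521 and 150 to 287 CPM). Of 8 epithelial markers 3 fell (1.28 to 20.2 and 3.82 to 15.2 CPM), and of 8 smooth muscle markers 3 rose and 1 fell. Sox10, 1 of 5 neural markers, and Myh3, 1 of 5 skeletal muscle markers, fell as well. Over all genes 6.25% were called (3.48% falling and 2.78% rising). The part of these markers in the slopes of Eln and Fbln5 was not tested. In all 6 libraries the cartilage marker Matn1 had 3 counts or fewer.

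The third comparison asks whether the slope differed between WT and KO. No gene of the 10 passed edgeR's interaction test, and neither did any other gene (0 of 16603, 0.0%), while 1137 genes and 0 of the 10 had an unadjusted p under 0.05. DESeq2 called 82 genes and limma on log2(TPM + 1) called 2, none of them among the 10. The Eln slopes were -0.64 in WT and -0.76 in KO (difference -0.12 ± 0.28 SE, edgeR adjusted p = 0.955). Those of Fbln5 were 0.40 and 0.35 (difference -0.05 ± 0.12 SE, adjusted p = 0.956). The widest gap among the 10 was that of Emilin1, -0.09 in WT and 0.23 in KO (difference 0.31 ± 0.24 SE, adjusted p = 0.863). A p that misses the threshold does not show that the slopes were equal.

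The genes whose pattern over the 6 libraries was most like that of Eln were found as the lowest root mean square difference of mean-centred log2 CPM among 10736 genes. They were Lama1, a laminin chain (0.123), Pknox2, a homeobox factor (0.171), and Col5a3, a chain of type V collagen (0.209). Lama1 held 30.5, 13.7 and 16.8 CPM in WT and 24.9, 11.2 and 9.00 CPM in KO. None of the other 9 genes was as close to Eln, the nearest being Fbn1 (0.356) and the farthest Mfap4 (0.906). Among the 10, the most alike pairs were Fbln1 with Emilin1 and Mfap2 with Fbln5 (0.25 each). These are descriptions over the same 6 libraries, in which all genes share each library's depth and scaling.

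The deposited tables also give each gene's transcript length, weighted by the estimated use of its isoforms, a readout that the level does not fix. Fbn2 had the clearest difference, 9819, 9655 and 9743 bases in WT and 9504, 9440 and 9549 bases in KO, with every KO library shorter (exact permutation p = 0.1, the smallest possible; adjusted over the 10 genes, 0.5). Mfap2 went the other way by a few bases, 1049, 1050 and 1053 in WT and 1067, 1061 and 1060 in KO (p = 0.1, exact permutation test). Thus 2 of 10 genes did not overlap between genotypes, where 9.81% of 12935 genes with varying length did not. The length of Mfap5 shortened with passage in both genotypes, from 1171 to 1086 to 1035 bases in WT and from 1144 to 1124 to 1075 bases in KO. That of Fbln1 grew at each step, from 2713 to 2729 to 2772 bases in WT and from 2721 to 2739 to 2778 bases in KO. The share of all genes with such steps in length was not computed. For Mfap5, Fbln1 and the remaining genes the genotypes overlapped.

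**Figure D4:**
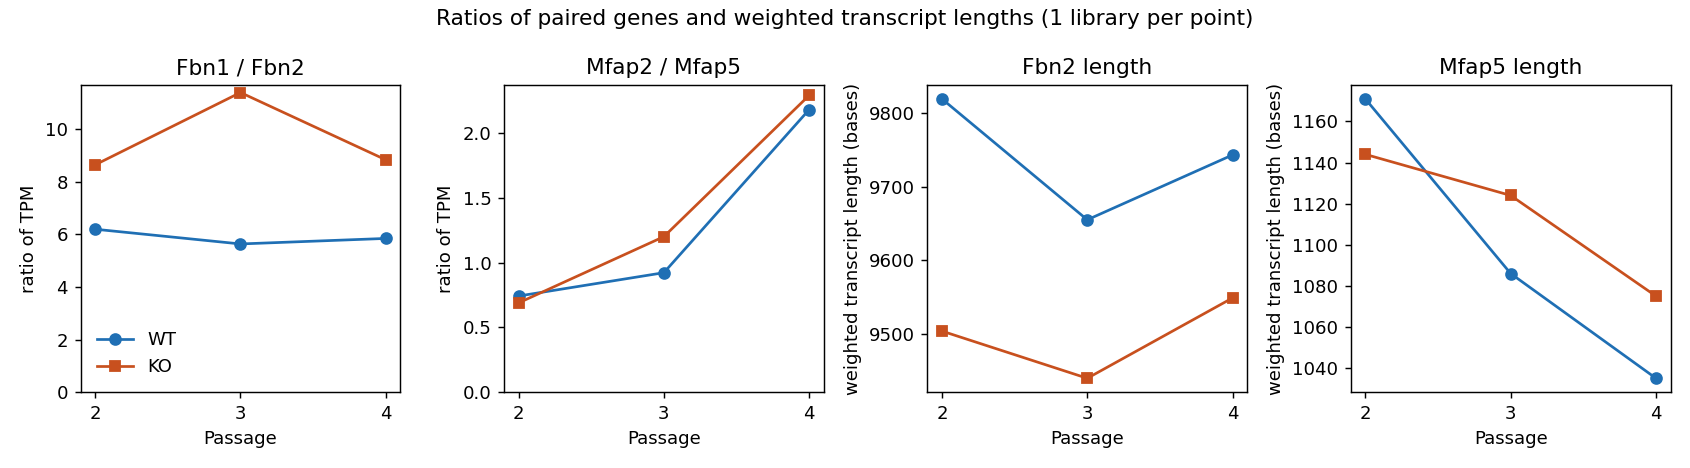
Ratio of TPM of Fbn1 to Fbn2 and of Mfap2 to Mfap5 (left panels, y axis from 0) and weighted transcript length in bases of Fbn2 and Mfap5 (right panels, y axis not from 0) at passages 2, 3 and 4 (x axis), with WT as blue circles, KO as orange squares and 1 library per point. The Fbn1 to Fbn2 ratio and the Fbn2 length separate the genotypes, while the Mfap2 to Mfap5 ratio climbs from 0.742 to 2.18 in WT and from 0.689 to 2.29 in KO.

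Related genes of the same pathway, 50 in 8 lists, were mostly not called between genotypes, where 2.48% of all genes tested were called. Of 9 other lysyl oxidases and proteins that supply them, 1 was higher and 0 lower. The higher one was Pcolce2, an enhancer of procollagen processing, at 4.49, 5.03 and 6.87 CPM in WT and 9.88, 12.0 and 13.5 CPM in KO (log2 1.12 ± 0.21 SE, edgeR adjusted p = 0.0395). The elastic-fibre relative of Lox, Loxl1, averaged 378 ± 38.2 CPM in WT against 349 ± 4.95 CPM in KO (SD, n = 3; edgeR adjusted p = 0.569). Loxl2 had a log2 difference of -0.34 (adjusted p = 0.164), and 44.1% of its sequence words also occur in other genes, so its count is uncertain.

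Among 9 receptors and binding partners, Itga5, the fibronectin receptor chain, was higher (log2 0.53 ± 0.10 SE, edgeR adjusted p = 0.0439) and Dcn, the proteoglycan decorin, was lower (log2 -0.94 ± 0.17 SE, adjusted p = 0.037). Dcn held 508.5, 678.8 and 487.6 CPM in WT and 325.5, 305.6 and 242.4 CPM in KO, with no overlap. The calls of Pcolce2, Itga5 and Dcn were lost in 5, 6 and 5 of 6 fits with 1 library left out (adjusted p up to 0.21, 0.246 and 0.188).

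Of 6 other fibulins and hemicentins, 4 latent TGF-beta binding proteins, 8 microfibril-associated ADAMTS genes, 7 elastin-cutting proteases, 3 TGF-beta ligands and 2 tested of 4 EMILIN relatives, 0 were called between genotypes. Fbln2 (log2 -0.33, edgeR adjusted p = 0.178), the short fibulin Efemp2 (-0.25, 0.215), Ltbp2 (-0.17, 0.631) and Ltbp4 (-0.50, 0.0748) were among them. With the block Ltbp4 was called (adjusted p = 0.0411) and Ltbp1 had a log2 change of 0.68 (adjusted p = 0.00634), opposite in sign to the 10 genes. The blocked fit called 2 of the 6 fibulins and hemicentins (1 higher and 1 lower) and 2 of the 8 ADAMTS genes (both lower). It also called 3 of the 7 proteases (1 higher and 2 lower) and 4 of the 9 binding partners (1 higher and 3 lower). Over all genes that fit called 11.1% (6.37% lower and 4.69% higher).

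With passage, 5 of the 50 (the untested EMILIN relatives included) were called, against 6.25% of all genes tested. The short fibulin Efemp1 rose (log2 0.34 per passage, edgeR adjusted p = 0.0392) and Emilin2 fell (-0.22, 0.0392). Adamtsl3, a microfibril-associated ADAMTS-like gene, fell (-0.59, 0.0228), as did the macrophage elastase Mmp12 (-0.83, 0.0254) and cathepsin S, Ctss (-1.20, 0.00163). Ctss held 27.9, 13.8 and 4.76 CPM in WT and 18.5, 6.50 and 3.88 CPM in KO, a fall in the same libraries in which the macrophage markers fell. Without both passage 2 libraries none of the 5 was called (adjusted p from 0.148 to 0.646).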

How the data were processed

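RNA-seq of 6 MEF libraries was analysed from deposited tables of 55487 Ensembl genes. Trimmomatic 0.39, RSEM and build GRCm38 are named in the submitters' processing notes. The RSEM version, aligner, annotation and strand handling were not given in the sources used here. Expected counts, as deposited, were 12.0% to 15.8% not whole, since RSEM divides ambiguous reads among genes, and were rounded. The authors' deposited TPM values, which allow for transcript length, were used for comparisons between genes. The deposited FPKM values were not used. The deposited weighted and effective transcript lengths in bases come from the same tables. IDs were matched to GENCODE M21 (99.5%) for symbols and coordinates, and promoter sequences are from RefSeq. Library totals were 24853121 to 67760880 expected counts, which limits counting error only.

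Counts were filtered by edgeR 4.0.16 (minimum count 10, by genotype), scaled by TMM and tested by its robust quasi-likelihood test (2-sided, R 4.3.3) for genotype (4 residual degrees of freedom), passage slope with genotype (3) and their interaction (2). Adjusted p is Benjamini-Hochberg over all 16603 genes, with a threshold of 0.05. Single ratios and lengths used exact permutation tests (scipy 1.17.1). Passage numbers pair the genotypes: deviations from the group means of same-passage libraries correlated at 0.488, 0.137 and 0.416 over genes, so blocked values are given where they change a call. No libraries were duplicates. Alternatives were DESeq2 1.42.0, limma 3.58.1 on log2(TPM + 1) or log2(TPM + 0.1), effective lengths as offsets, no filter, groups by the tag, and libraries or passages left out. The passage omissions within the blocked and passage fits, and other tools with the block, were added after seeing the data. The scripts were tested on simulated data. The genes, lists and tests were chosen with earlier results of these data known. All 10 genes are named. Related genes are named if called by a fit without the block or if a family counterpart, and Ltbp1 was named after its value was seen.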

Additional observations from a re-analysis of the deposited data

How the results depend on the processing

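With passage as a replicate block, 1835 genes were called between genotypes instead of 412, and 9 of the 10 instead of 2; it changed the calls given above and not those of Mfap4, Fbln1 or Lox. With the block, leaving out passage 2, 3 or 4 gave 639, 248 and 3197 genes, with 6, 3 and 7 of the 10. Other tools with the block gave 1752 genes and 6 of the 10 (limma on log2(TPM + 1)), 1581 and 8 (effective lengths as offsets) and 2365 and 10 (DESeq2).

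Without the block, DESeq2 called 1661 genes and 5 of the 10 (Emilin1, Fbln1, Fbn2, Mfap2 and Mfap4), and no filter called 846 genes. Leaving out 1 library gave 38 to 847 genes and 1 to 4 of the 10, and leaving out both passage 2 libraries gave 59 and 0. Limma on log2(TPM + 1) put 219 higher and 168 lower, against 155 and 257 in the edgeR fit, and 1073 and 679 against 778 and 1057 with the block. The median of all genes was 0.103 on the log2(TPM + 0.1) scale. Grouping by the tag leaves only the KO library of passage 2 in the KO group, whereas the Xist levels divide the libraries as the titles do. With that grouping the median log2 change of the 10 was -0.40, and Eln (0.49), Fbn1 (0.17) and Mfap5 (0.064) had positive values.

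For passage, DESeq2 called 1709 genes and 4 of the 10, no filter 2443 and 6, and limma on log2(TPM + 1) 4 of the 10. Leaving out 1 library gave 278 to 1286 genes and 0 to 4 of the 10. Slopes within WT (134 genes) or KO (158), or without genotype in the fit (157), called 0 of the 10. Leaving out both libraries of passage 2 called 11 genes and 0 of the 10, and of passage 4 146 genes and 1. The sign of uncalled slopes turned for Mfap4 with limma on log2(TPM + 1) (0.005), within KO (0.052), without passage 4 (0.017) and with some single libraries left out (-0.144 to 0.115). It turned for Emilin1 within WT (-0.086), without passage 2 (-0.28) and without the KO library of passage 2 (-0.031 to 0.287 over single libraries left out), for Fbn1 (0.15) and Fbn2 (0.32) without passage 2, and for Fbln1 (0.13) and Lox (0.11) without passage 4.

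The interaction called 82 genes with DESeq2, 289 with no filter, 2 with limma on log2(TPM + 1), where the median of all genes was 0.154, and 0 to 10 with 1 library left out, none of them among the 10. The difference of slopes turned positive for Eln with limma on log2(TPM + 1) (0.20), effective lengths (0.022), and without the KO library of passage 2 or the WT library of passage 4 (-0.858 to 0.526 over single libraries left out), and for Fbln5 with limma on log2(TPM + 1) (0.14) and without the same libraries (-0.237 to 0.082). Where a call or sign changed, the cause was not tested. Eln, with 159 to 904 counts, is the member that depth limits most.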
